A study of Peromyscus maniculatus with 6 samples.

Results

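A set of genes that governs the breakdown and storage of triacylglycerol was followed in cultured ear fibroblasts of deer mice before and after tunicamycin. Its members are G0s2, Hilpda, Pnpla2, Abhd5, Lipe, Mgll, Plin2, Plin3, Dgat1 and Dgat2, all 10 of which were found by symbol among the 24281 genes of the deposited count table. G0s2 was chosen by its own large fall in the comparison of treated with control libraries, so its difference is given here as a description with no test. The other 9 were listed around it for their function in the same pathway, with results of these data already known, so their counts are no independent evidence. All 10 passed the filter on low counts, which kept 13503 genes. The control group is fibroblasts (Peromyscus maniculatus, BW stock, animals 4 weeks old) from ear punches of 3 animals, labelled BW35770, BW35772 and BW35773, with 1 control library each. The tunicamycin group is the same 3 cultures with 1 library each after 5 h of the drug, an inhibitor of protein N-glycosylation that stresses the endoplasmic reticulum. The label gives 5 mg per mL, a value that could not be checked here, and no source used here states what vehicle the control wells received. The cells were whole passaged cultures from digested ear tissue, so fewer cells of a type and less RNA per cell cannot be told apart.

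Triacylglycerol is stored in lipid droplets, which bud from the endoplasmic reticulum and are coated by perilipins. Adipose triglyceride lipase, the product of Pnpla2, starts its breakdown and is activated by the product of Abhd5 (CGI-58). The small proteins G0S2 and HILPDA bind this lipase and inhibit it. Hormone-sensitive lipase (Lipe) and monoacylglycerol lipase (Mgll) then release the remaining fatty acids, and the enzymes DGAT1 and DGAT2 make triacylglycerol in the last step of its synthesis.

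Libraries held 37852385 to 49352126 counts on genes. Levels are given as CPM, the counts of a gene relative to the TMM-scaled total of its library. The stress response was present in every treated library: Ddit3, which encodes the transcription factor CHOP, ranged from 19.4 to 23.9 CPM in controls and from 262.7 to 447.4 CPM in treated libraries, and Ddit3, Hspa5, Atf4 and Trib3 were all called higher by edgeR. Fibroblast markers summed to 15486 to 21590 CPM in controls and 15871 to 20748 CPM with tunicamycin. The leukocyte marker Ptprc had 1 count in all 6 libraries together and the keratinocyte marker Krt1 had 0. Of 28 tested markers in 6 cell type lists 0 were called between treatments by edgeR, DESeq2 or limma-voom. By edgeR 1 was lower with an unadjusted p under 0.05, as were 896 of all 13503 tested genes. That marker was Sox9 of the cartilage list, with a log2 fold change of -0.35 ± 0.14 (SE, adjusted p by edgeR = 0.278). With the animal as a block 1 was lower, Krt14, a keratinocyte keratin at 4.52, 8.99 and 22.7 CPM in controls and 2.23, 3.92 and 12.2 CPM with tunicamycin (adjusted p by edgeR = 0.02); its part in the results was not tested. Cartilage markers were plentiful, at 1887 to 9037 CPM summed over a library, and the adipocyte marker Adipoq lay between 13.1 and 25.9 CPM.

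The 2 inhibitors of adipose triglyceride lipase differed from control in opposite directions in all 3 animals. G0s2 (ENSPEMG00000008698, scaffold KI615674.1, bases 250654 to 251595, plus strand, 2 exons) stood at 26.3, 29.0 and 23.5 CPM in the controls of BW35770, BW35772 and BW35773. In the matching tunicamycin libraries it stood at 3.78, 2.66 and 3.59 CPM. Every treated library was thus far below every control, and both groups were tight, at 26.3 ± 2.78 against 3.34 ± 0.60 CPM (SD, n = 3). The mean was 7.86-fold lower with tunicamycin, and within the animals the level was 6.96-fold, 10.9-fold and 6.54-fold lower. The fitted log2 fold change was -2.98 ± 0.20 (SE), the 2nd lowest of the 13503 tested genes. These values rest on 3113 counts in the controls and 453 in the treated libraries. The smallest library count was 139, for which counting error alone is 8.48%, a value that leaves out variation between cultures.

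Hilpda (ENSPEMG00000000893, scaffold KI615435.1, bases 1449004 to 1451679, plus strand, 2 exons), best known as a gene induced by hypoxia, stood at 13.1, 14.7 and 12.1 CPM in the controls, in the same order of animals. With tunicamycin it stood at 20.3, 31.8 and 40.1 CPM, so every treated library lay above every control. The treated levels were spread widely, with 1.55-fold, 2.15-fold and 3.31-fold higher values in BW35770, BW35772 and BW35773. The log2 fold change was 1.21 ± 0.25 (SE), and the call was missed in the edgeR quasi-likelihood test of 3 against 3 libraries (adjusted p = 0.0541). With the animal as a block, which pairs the libraries of 1 animal, Hilpda rose by 1.16 ± 0.21 on the log2 scale (adjusted p by edgeR = 0.0261). Without BW35770 the blocked fit gave 1.42 (adjusted p by edgeR = 0.0596), and without BW35773 it gave 0.90 (0.0206). DESeq2 made the call (adjusted p = 0.000272) and limma-voom missed it (0.085). Without the tunicamycin library of BW35770 the unblocked edgeR test made it too (adjusted p = 0.0225). The same test missed it when any other single library was left out. Adjusted p by edgeR then ran from 0.0653 (without the tunicamycin library of BW35773) to 0.241 (without the control library of BW35773).

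**Figure D1:**
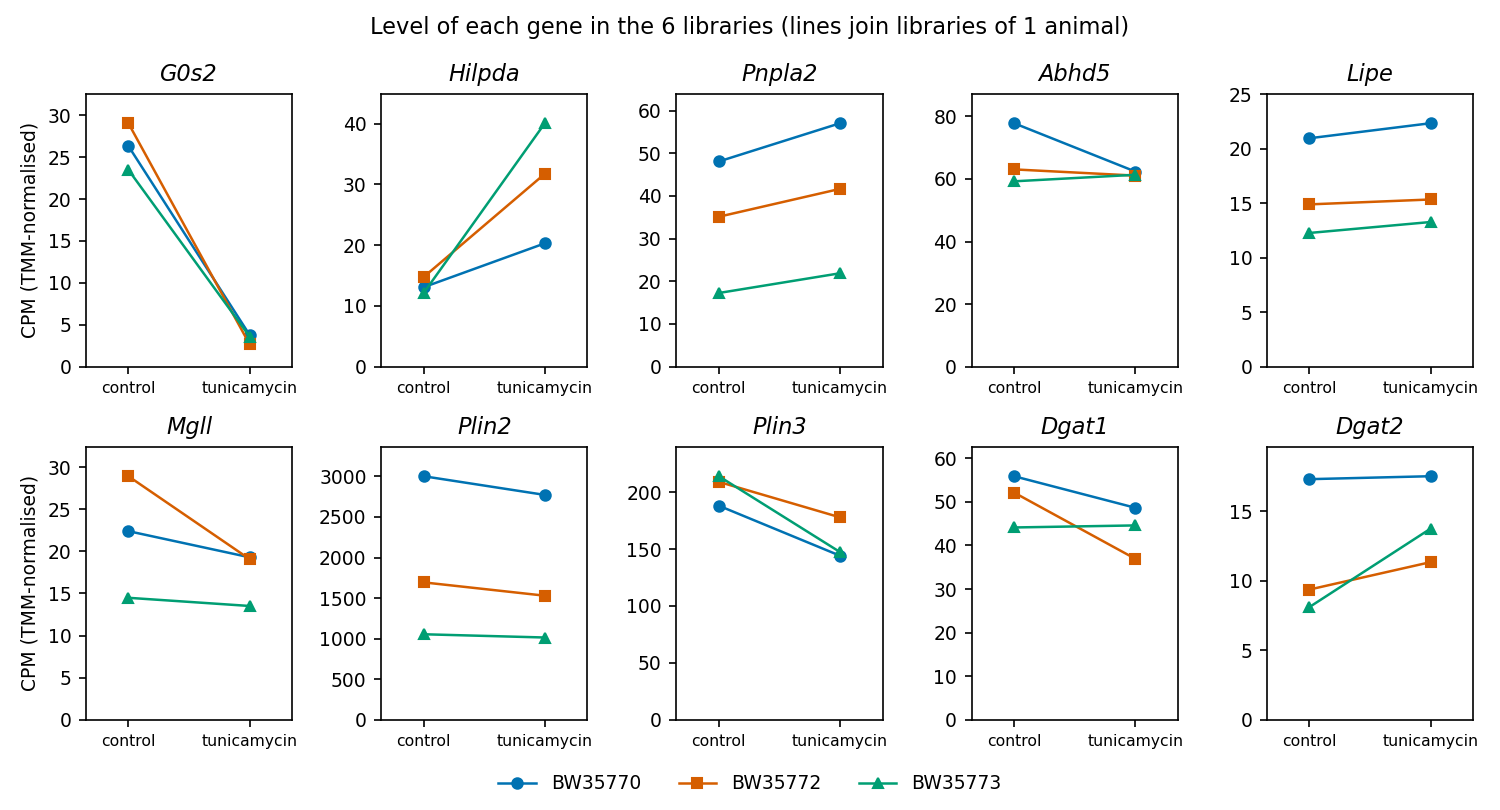
Level of each of the 10 genes (CPM, vertical axis from 0, its own scale per gene) in control and tunicamycin libraries, with a line joining the 2 libraries of each animal. G0s2 drops to between 2.66 and 3.78 CPM in all 3 animals, Hilpda lies between 20.3 and 40.1 CPM in treated libraries, and for Plin2 and Pnpla2 the lines run nearly level and apart.

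Among the 9 genes other than G0s2, 0 were called higher and 0 lower by the edgeR test without the block, where 1.78% of all tested genes were called higher and 0.792% lower. By unadjusted edgeR p under 0.05, 1 was higher (Hilpda) and 1 lower (Plin3), where 1199 and 896 of all 13503 tested genes were. DESeq2 called 1 higher and 0 lower, where it called 679 and 401 of all tested genes. Limma-voom called 0, beside 218 higher and 104 lower of all tested genes. With the block 1 of the 9 (Hilpda) was higher and 0 lower, where 3.07% of all tested genes were higher and 2.40% lower. The median log2 fold change of the 9 was -0.11, beside -0.01 over all tested genes. Of the 9, the groups did not overlap for Plin3 and Hilpda only, a pattern seen in 22.3% of all tested genes. All 3 pairs went the same way for each of the 9 except Abhd5 and Dgat1, and for 42.4% of all tested genes. G0s2 is left out of both, since it was chosen by its fall.

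Neither the lipase nor its activator was called. Pnpla2 (ENSPEMG00000011478, scaffold KI615404.1, bases 3983726 to 3988525, 10 exons) stood at 48.1, 35.1 and 17.3 CPM in the controls and 57.0, 41.7 and 21.9 CPM with tunicamycin. Each treated library was above its own control, by 1.19-fold, 1.19-fold and 1.27-fold, but the groups overlapped because the animals differed more than the treatments. Its log2 fold change was 0.26 ± 0.43 (SE, adjusted p by edgeR = 0.863), and 0.28 ± 0.12 with the block (0.238). Abhd5 (ENSPEMG00000018409, scaffold KI615503.1, bases 494123 to 526397, minus strand) stood at 77.8, 63.1 and 59.2 CPM in controls and 62.4, 61.1 and 61.3 CPM with tunicamycin. The treated libraries were almost alike, at 61.6 ± 0.68 CPM (SD, n = 3), and the log2 fold change was -0.12 ± 0.13 (adjusted p by edgeR = 0.78).

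Set against each other per exon base, the lipase and G0s2 changed places. The ratio of Pnpla2 to G0s2 was 0.74, 0.49 and 0.30 in the controls of BW35770, BW35772 and BW35773, and 6.10, 6.34 and 2.47 after tunicamycin. G0s2 exceeded the lipase in all 3 controls and was below it in all 3 treated libraries. The ratio of G0s2 to Hilpda was close to constant in controls, at 2.55, 2.50 and 2.46, and was 0.24, 0.11 and 0.11 with treatment. The sum of both inhibitors relative to Pnpla2 was 1.88, 2.86 and 4.73 in controls and 0.86, 1.64 and 3.97 with treatment. It counts the RNA of both genes alike, and whether Hilpda offsets the fall of G0s2 was not tested. These ratios use the fall by which G0s2 was chosen and are descriptions of RNA levels.

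The lipases of the later steps showed no called difference. Lipe, hormone-sensitive lipase (ENSPEMG00000018430, scaffold KI615671.1, bases 1171336 to 1190974), stood at 20.9, 14.9 and 12.3 CPM in controls and 22.3, 15.3 and 13.3 CPM with tunicamycin, a log2 fold change of 0.08 ± 0.27 (SE, adjusted p by edgeR = 0.936). Each animal kept nearly its own level. An unnamed gene on the opposite strand (ENSPEMG00000007695) overlaps Lipe and held at most 0.40 CPM in any library. Mgll (ENSPEMG00000009625, scaffold KI616326.1, bases 262343 to 381102) stood at 22.4, 28.9 and 14.5 CPM in controls and 19.3, 19.1 and 13.5 CPM with tunicamycin. All 3 treated libraries were below their own controls, the groups overlapped, and the log2 fold change was -0.34 ± 0.27 (adjusted p by edgeR = 0.643).

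The 2 perilipins differed in how they varied. Plin2, the coat protein of droplets in cells other than adipocytes (ENSPEMG00000020242, scaffold KI615387.1, bases 2007949 to 2018654), was by far the most abundant of the 10. It stood at 3003, 1694 and 1053 CPM in controls and 2772, 1529 and 1013 CPM with tunicamycin. The order of animals was the same in both groups, and the treated level was 0.92, 0.90 and 0.96 of the control. Its log2 fold change was -0.11 ± 0.46 (SE, adjusted p by edgeR = 0.948) and -0.11 ± 0.11 with the block (0.661). Plin3, a perilipin that moves between cytosol and droplets (ENSPEMG00000022494, scaffold KI615491.1, bases 764380 to 776871, minus strand), stood at 188.1, 209.0 and 214.0 CPM in controls and 144.1, 177.8 and 147.3 CPM with tunicamycin. The highest treated library lay below the lowest control, but the log2 fold change of -0.38 ± 0.13 was not called (adjusted p by edgeR = 0.195, and 0.104 with the block).

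For the enzymes of triacylglycerol synthesis the treated and control libraries overlapped. Dgat1, which sits in the endoplasmic reticulum (ENSPEMG00000018656, scaffold KI615732.1, bases 2032744 to 2042738, 17 exons), stood at 55.9, 52.2 and 44.1 CPM in controls and 48.7, 36.9 and 44.6 CPM with tunicamycin (log2 fold change -0.23 ± 0.15 SE, adjusted p by edgeR = 0.563). Dgat2, which also acts at droplets (ENSPEMG00000021889, scaffold KI615489.1, bases 2557918 to 2594716), stood at 17.3, 9.37 and 8.11 CPM in controls and 17.5, 11.4 and 13.8 CPM with tunicamycin. The difference was almost nil in BW35770 (1.01-fold) and 1.70-fold in BW35773, and the log2 fold change was 0.29 ± 0.32 (adjusted p by edgeR = 0.763). The ratio of Dgat1 to Dgat2 per exon base was 3.92, 6.76 and 6.61 in controls and 3.37, 3.95 and 3.94 with treatment, lower in each animal.

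**Figure D2:**
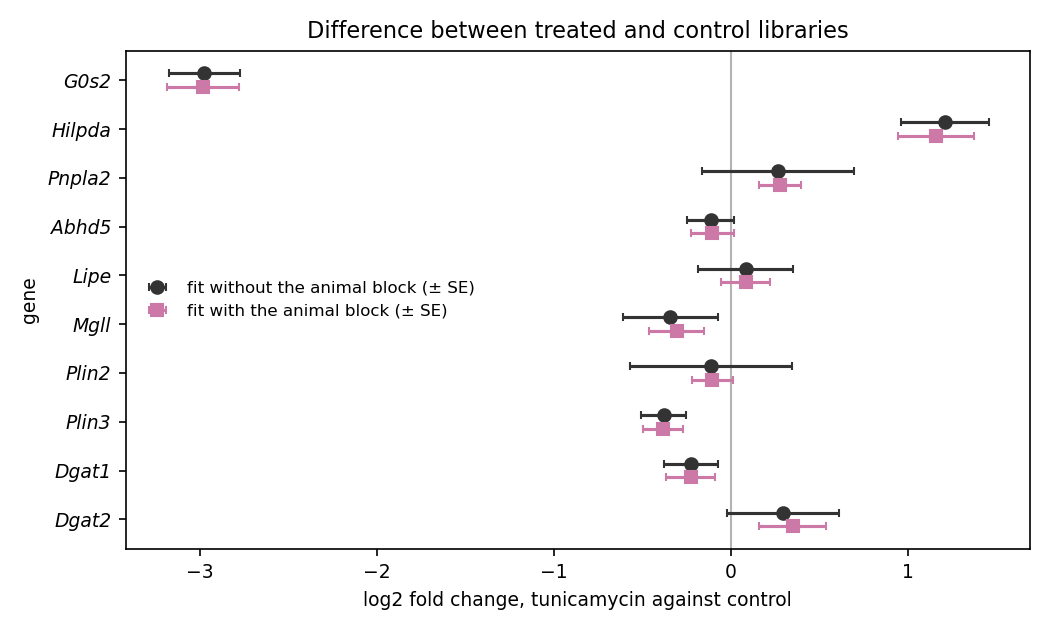
Log2 fold change of each gene between tunicamycin and control libraries (horizontal axis), as point and SE, without and with the animal as a block. G0s2 (-2.98) and Hilpda (1.21) stand apart from the other 8 genes, whose values lie between -0.38 and 0.29, and the SE of Plin2 shrinks from 0.46 to 0.11 with the block.

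Levels of different genes were compared as RPKM, the CPM divided by the summed exon length in kilobases. In controls the order was Plin2 (1469 ± 761, SD, n = 3), Plin3 (117.8 ± 7.96), G0s2 (33.0 ± 3.49), Dgat1 (25.1 ± 2.97), Abhd5 (21.0 ± 3.08), Mgll (19.9 ± 6.56), Pnpla2 (17.0 ± 7.86), Hilpda (13.2 ± 1.32), Lipe (5.03 ± 1.40) and Dgat2 (4.72 ± 2.03 RPKM). The control ranges of Plin2, Plin3 and G0s2 did not overlap those of their neighbours in this order, nor did those of Hilpda and Lipe. From Dgat1 through Abhd5, Mgll and Pnpla2 to Hilpda each gene overlapped its neighbour, as Lipe did Dgat2, so their order is not settled by these libraries. By mean control RPKM Plin2 ranked 51st of the 13503 tested genes and G0s2 2822nd. With tunicamycin G0s2 went from the 3rd to the 10th place among the 10 (3.34 to 4.75 RPKM), and Hilpda from the 8th to the 3rd (20.1 to 39.7 RPKM). Without division by length G0s2 was 6th in controls, so its place depends on its short exons (797 bases).

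**Figure D3:**
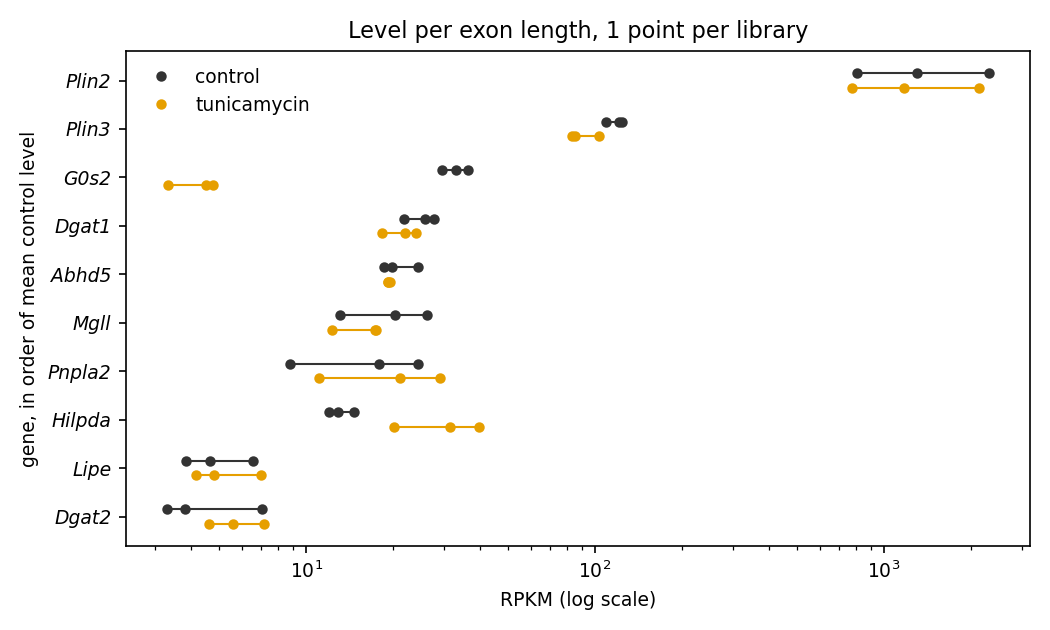
Level per exon length (RPKM, logarithmic horizontal axis) of each gene, 1 point per library, control and tunicamycin, with lines over the range of each group. Plin2 lies at 777 to 2301 RPKM, well to the right of all others, and the G0s2 range moves from 29.5 to 36.4 down to 3.34 to 4.75 RPKM.

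The largest differences among Plin2 and Pnpla2 libraries lay between animals, not treatments. Control levels in BW35770 were 1.77-fold and 2.85-fold those of BW35772 and BW35773 for Plin2, and 1.37-fold and 2.79-fold for Pnpla2. In treated libraries the same ratios were 1.81 and 2.74 for Plin2, and 1.37 and 2.61 for Pnpla2, so the difference came back in the second library of each culture. An edgeR quasi-likelihood F test of the animal terms, with treatment in the model, was chosen after these values were seen. It called 2 of the 10 genes, Plin2 (adjusted p = 0.00494) and Pnpla2 (0.00664), where 3.53% of all tested genes were called. Both calls were lost without the control library of BW35770 (adjusted p by edgeR = 0.173 for Plin2 and 0.128 for Pnpla2) or its tunicamycin library (0.177 and 0.133). G0s2 was not called between animals (adjusted p by edgeR = 0.898), nor was Hilpda (0.575).

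The cultures also differed in cell type markers: the same edgeR test called 16 of the 28 tested markers between animals (57.1%). Adipocyte markers, of which 8 of 10 are named in the table, summed to 234.9 and 226.2 CPM in the control and treated libraries of BW35770 and to 80.3 to 101.7 CPM in those of the other 2 animals. The gene that differed most in CPM in this list was Lpl, lipoprotein lipase, at 113.8 and 98.1 CPM in BW35770, 7.87 and 10.5 CPM in BW35772 and 28.7 and 17.6 CPM in BW35773. The defining adipocyte gene Adipoq differed less (25.9 and 25.3 CPM in BW35770 against 13.1 to 20.3 CPM), and Lep was at 0 in 5 of the 6 libraries. Cartilage markers summed to 1887 and 2100 CPM in BW35770, and lay between 6231 and 9037 CPM for the other animals. The macrophage marker Cd68 stood at 175.2, 121.9 and 86.1 CPM in the controls of BW35770, BW35772 and BW35773. It stood at 153.0, 69.6 and 68.6 CPM in their treated libraries, the order of Plin2 and Pnpla2 (adjusted p by edgeR between animals = 0.0311). Cd14 followed the same order at low levels (0.87 to 5.56 CPM). Other macrophage markers were nearly absent: Csf1r had 7 counts in controls and 7 in treated libraries, Mrc1 8 and 8, and Adgre1 24 and 36. The fibroblast marker Thy1 stood at 751.8, 85.2 and 118.0 CPM in the same controls. In the treated libraries it stood at 827.3, 58.1 and 114.0 CPM, highest in BW35770 in both groups (adjusted p by edgeR between animals = 0.0011). The other called fibroblast markers were lowest in BW35770: Col1a1 (adjusted p by the same edgeR test = 0.0334), Col3a1 (0.0040), Fn1 (0.0225) and Lum (0.0436). Fibroblast markers summed to 15486 and 15871 CPM in BW35770 and to 18585 to 21590 CPM in the other animals. The part of cell type differences in the levels of Plin2 and Pnpla2 was not tested, and animal and culture cannot be told apart.

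**Figure D4:**
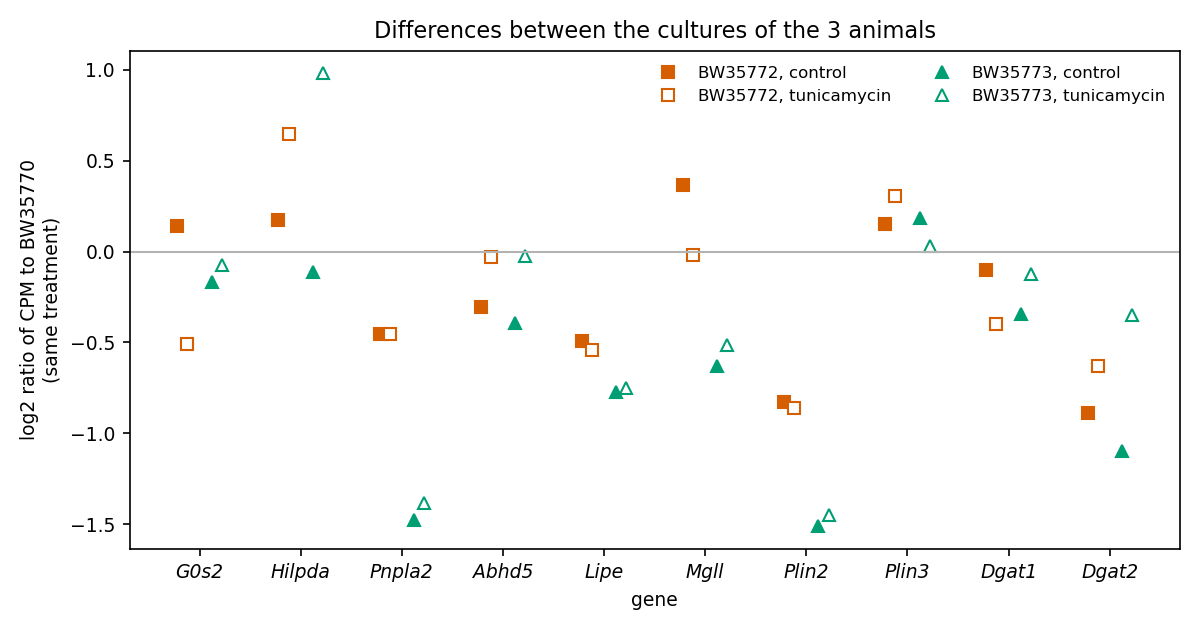
Log2 ratio of CPM in animals BW35772 (squares) and BW35773 (triangles) to BW35770 in the same treatment, for controls (filled) and tunicamycin libraries (open). For Plin2 and Pnpla2 filled and open symbols nearly coincide below 0, while for Hilpda the open symbols lie above the filled ones.

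Other genes of lipid storage were taken from 6 lists drawn up by function, 103 symbols of which 87 are named in the table and 75 were tested. Of these 75, 1 was higher and 1 lower (1.33% each), near the share among all tested genes, and their median log2 fold change was -0.11. DESeq2 called 2 higher and 2 lower, where it called 679 and 401 of all 13503 tested genes. By unadjusted edgeR p under 0.05, 5 were higher and 6 lower, where 1199 and 896 of all tested genes were. These counts over all tested genes are also the background of each single list below. Insr, the insulin receptor, whose signal restrains lipolysis, stood at 26.1, 25.6 and 28.7 CPM in controls and 54.3, 55.7 and 39.4 CPM with tunicamycin. It rose by 0.90 ± 0.16 on the log2 scale (SE, adjusted p by edgeR = 0.0347), and every treated library lay above every control. Abhd12, a hydrolase of monoacylglycerols and lysophospholipids, stood at 143.7, 149.0 and 134.6 CPM in controls and 92.4, 91.1 and 93.7 CPM with tunicamycin. It fell by 0.62 on the log2 scale (SE 0.10, adjusted p by edgeR = 0.0232), and the treated libraries were nearly identical. Without the block both calls were lost when any 1 control library was left out (adjusted p by edgeR from 0.139 without BW35770 to 0.180 without BW35772 for Insr, and 0.1002, 0.168 and 0.118 without BW35770, BW35772 and BW35773 for Abhd12). Leaving out the treated library of BW35770 or of BW35772 lost them as well (0.123 and 0.0733 for Insr, 0.0949 and 0.0566 for Abhd12), as did the blocked fit without animal BW35770 (0.302 for Insr and 0.304 for Abhd12).

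In the list of other lipases and hydrolases 1 of 8 tested genes (Abhd12) was lower and the median log2 fold change was -0.07. Among droplet coat, fusion and assembly genes 0 of 7 were called, with a median of -0.19, while 2 had an unadjusted edgeR p under 0.05 upward and 1 downward, DESeq2 called 1 of each and limma-voom 0. Fitm2, which helps droplets bud from the endoplasmic reticulum, stood at 12.4, 11.6 and 11.5 CPM in controls and 18.3, 22.4 and 17.4 CPM with tunicamycin. Its log2 fold change of 0.71 ± 0.16 (SE) was not called (adjusted p by edgeR = 0.0702), and with the block it was (0.0484), except without BW35770 (0.358) or BW35772 (0.101). The gene of this list that was lower at an unadjusted edgeR p under 0.05 was Hsd17b11, named after its values were seen. It stood at -0.53 ± 0.12 on the log2 scale (SE, adjusted p by edgeR = 0.0744, and 0.0640 with the block). The adipocyte coat genes Plin1 and Plin4 were not analysed here, and Plin5, Cidea and Cideb were too low to be tested.

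In triacylglycerol and sterol ester synthesis 0 of 18 genes were called by edgeR, DESeq2 or limma-voom, 1 was higher at an unadjusted edgeR p under 0.05, and the median log2 fold change was -0.04. That gene was Soat1, which esterifies cholesterol for storage, at 0.64 ± 0.25 (SE, adjusted p by edgeR = 0.271). Of 12 genes of cAMP and insulin control, the hormonal switch of lipolysis, Insr alone was called, and 3 had a positive log2 fold change (median -0.22). A positive value was seen for 31 of the 75 list genes and 6555 of all 13503 tested genes. Among 12 transcription factors of lipid storage 0 were called by edgeR, DESeq2 or limma-voom, with 1 higher and 1 lower at an unadjusted edgeR p under 0.05. Of these 12, 9 had a positive log2 fold change (median 0.07). The smallest p there was that of Ppard, a nuclear receptor for fatty acids, at 0.44 ± 0.15 (SE, adjusted p by edgeR = 0.195). Pparg, the master factor of adipocytes and a known activator of G0s2, averaged 46.1 CPM in controls and 58.4 CPM in treated libraries (log2 fold change 0.34 ± 0.18 SE, adjusted p by edgeR = 0.438), and was named after its values were seen. Of 18 genes of fatty acid uptake and oxidation 0 were called by edgeR, DESeq2 or limma-voom and 1 was lower by edgeR with an unadjusted p under 0.05. It was Slc27a4, a fatty acid transporter, at -0.33 ± 0.11 (SE, adjusted p by edgeR = 0.186). Of these 18, 3 had a positive log2 fold change (median -0.18).

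**Figure D5:**
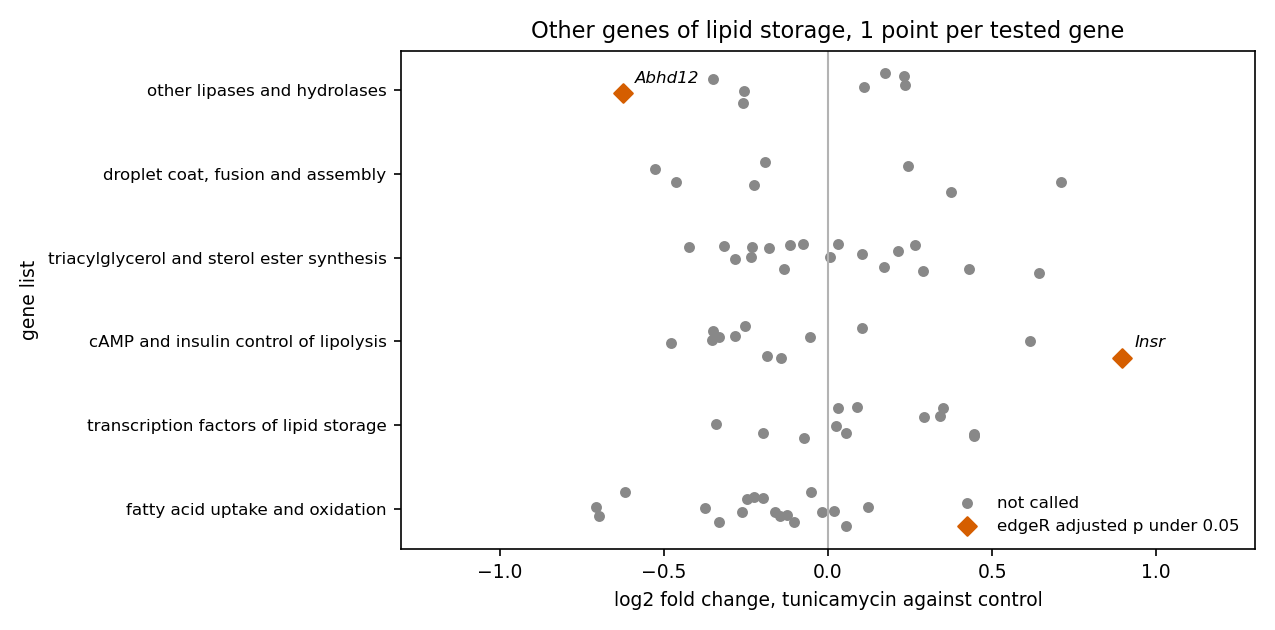
Log2 fold change between tunicamycin and control (horizontal axis) of each of the 75 tested genes in the 6 lists, with height inside a list of no meaning and genes past an edgeR adjusted p of 0.05 as labelled diamonds. Insr at 0.90 and Abhd12 at -0.62 are the 2 labelled genes, and the rest lie on both sides of 0.

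Between animals 7 of these 75 genes were called (9.33%, where 3.53% of all tested genes were): Lpl, Cpt1b, Fabp4, Ppargc1a, Pdk4, Fabp5 and Adrb1. Cpt1b, the muscle form of the enzyme that admits fatty acids to mitochondria, stood at 17.3 and 15.3 CPM in BW35770, 6.03 and 5.09 CPM in BW35772 and 3.48 and 2.17 CPM in BW35773, in the same order as Plin2. Fabp4, a fatty acid carrier of adipocytes, stood at 24.7 and 14.2, 11.5 and 6.53, and 7.81 and 6.41 CPM. In controls Fabp5 and Adrb1 were lowest in BW35770, so the called genes did not share 1 direction.

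The genes whose profile over the 6 libraries lay closest to that of G0s2 were Id1, Snai1, Id2, Scara3 and Dlx1, out of 8907 named genes that averaged 1 or more in log2 CPM. Likeness was the Euclidean distance between log2 CPM profiles, each centred on its own mean. It was 1.00, 1.118, 1.15, 1.17 and 1.22 in that order. The ranking uses the fall by which G0s2 was chosen, so it favours genes with large falls and is a description. Id1 and Id2 encode inhibitors of basic helix-loop-helix factors, Snai1 a zinc-finger repressor, Scara3 a scavenger receptor and Dlx1 a homeobox factor, and none of these is a lipid storage gene on the lists used here. Snai1 stood at 128.2, 116.1 and 102.6 CPM in controls and 34.1, 22.5 and 25.5 CPM with tunicamycin. For Hilpda the closest were Rnf122 (0.36), Cnst (0.39), Creld2 (0.44), Jdp2 (0.46) and Rnd1 (0.51). They were picked by the profile of Hilpda over the same 6 libraries, so a shared pattern follows from the choice and is a description. Creld2, a folding factor of the endoplasmic reticulum, stood at 86.5, 107.6 and 90.9 CPM in controls and 157.3, 173.8 and 243.1 CPM with tunicamycin. Jdp2, a repressor of the AP-1 family, stood at 72.1, 103.8 and 93.9 CPM in controls and 167.3, 206.5 and 263.0 CPM with tunicamycin.

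On its scaffold G0s2 lies between Lamb3, a laminin chain 29174 bases below it, and Hsd11b1, an enzyme that regenerates glucocorticoids 30223 bases above it. Lamb3 had a log2 fold change of 0.06 ± 0.21 (SE, adjusted p by edgeR = 0.941). Hsd11b1 stood at 43.1, 12.6 and 10.8 CPM in controls and 28.1, 10.3 and 10.5 CPM with tunicamycin (log2 fold change -0.45 ± 0.61 SE, adjusted p by edgeR = 0.834). Neither neighbour of G0s2 was called. Next to Hilpda, Impdh1, an enzyme of guanine nucleotide synthesis, had a log2 fold change of -0.08 ± 0.19 (adjusted p by edgeR = 0.909), and Fam71f2 was too low to be tested.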

How the data were processed

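RNA was measured in 6 libraries, 1 control and 1 tunicamycin library of each of 3 animals. The authors deposited raw read counts per gene. The submitters' processing notes name STAR 2.6.1, SAMtools 1.6 and featureCounts of Subread. The genome build and the handling of reads with several matches are stated in no source used here, so reads shared between related genes may be split. Gene names and exon lengths come from the deposited table.

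Counts were tested with edgeR 4.0.16 (R 4.3.3): filterByExpr (minimum count 10, minimum total 15), TMM scaling, and a two-sided quasi-likelihood test of 3 against 3 libraries. Benjamini-Hochberg adjustment ran over all 13503 tested genes, and called means an adjusted p under 0.05. SE is the size of the log2 fold change over the square root of F. Libraries of the same animal are pairs by their titles, and across genes the deviations of the 2 libraries of each animal from their group means had correlations of 0.66, 0.41 and 0.22, so the blocked fit is given where it changes a call. Alternatives were RLE and upper-quartile factors, DESeq2 1.42.0, limma-voom (limma 3.58.1), other filters (none, minimum count 50) and leaving out libraries or animals. The differences between animals were tested with the animal terms of the blocked model, a test added after seeing the data. A search for promoter motifs was not run.

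The members and lists were chosen with earlier results of these data known. Named genes are the 10 members, each list's called genes or else its smallest p, the 5 most like G0s2 and Hilpda, their neighbours, and 4 stress genes. Other names were chosen after their values were seen. Replicates are animals, and p-values of the unblocked fit measure the spread between 3 cultures. Those of the blocked fit measure the spread of the treatment difference over the 3 cultures. The test between animals sets differences between cultures against what the animal and treatment terms leave over. It has no second culture of any animal.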

Additional observations from a re-analysis of the deposited data

How the results depend on the processing

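Among the 9 genes other than G0s2, 0 were called lower by edgeR, DESeq2 and limma-voom under every alternative run (1 by unadjusted edgeR p under 0.05). The count higher was 0 in the edgeR fit and 1 (Hilpda) with the replicate block, with DESeq2, with no filter, with the strict filter, and with the block without BW35772 or BW35773. The lists of other lipid storage genes gave 2 higher and 1 lower with the replicate block, 2 and 2 with DESeq2, and, with the block, 0 and 0 without BW35770, 1 and 2 without BW35772 and 3 and 3 without BW35773. Over all tested genes (241 higher, 107 lower) the replicate block called 415 and 324, DESeq2 679 and 401, and the blocked fit 74 and 37 without BW35770, 497 and 451 without BW35772, and 806 and 826 without BW35773. The pairing by animal changed no call of a member other than Hilpda.

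Leaving out 1 library at a time gave 46 (control BW35773) to 313 (treated BW35773) genes higher and 15 (control BW35772) to 251 (treated BW35773) lower, 0 to 1 of the 9 genes higher, 0 to 2 of the other lipid storage genes higher and 0 to 1 lower. The count of the 10 genes that differed between animals was 0 to 2, with 0 without either library of BW35770. With all libraries DESeq2 called 3 of the 10 between animals (Pnpla2, Lipe and Plin2), where it called 1041 of all genes. In unblocked fits, uncalled log2 fold changes crossed 0 for Pnpla2 (-0.073 to 0.62), Abhd5 (-0.19 to 0.0098), Lipe (-0.16 to 0.32) and Plin2 (-0.59 to 0.37). In the blocked fit without 1 animal, Pnpla2 (0.274 to 0.294), Lipe (0.078 to 0.102) and Plin2 (-0.104 to -0.086) kept their direction. Abhd5 crossed 0 there as well, at 0.0022 without BW35770. The cause was not tested. Of the values for single named genes, 223 kept direction and side of the threshold, 12 became called, 12 lost the call and 9 crossed 0. The lost calls were all those of Insr and Abhd12. This tally includes G0s2, chosen by its fall, and list genes chosen by their p. Uncalled genes that stayed uncalled count as kept, so it does not measure how firm a call is. The G0s2 difference rests on at least 139 counts a library, and 3 animals limit every comparison.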
